A study of Mus musculus with 12 samples.

Results

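The genes described here are 10 CC chemokine genes of mouse macrophages, Ccl2, Ccl3, Ccl4, Ccl5, Ccl6, Ccl7, Ccl9, Ccl12, Ccl17 and Ccl22. They were taken from the count tables by gene symbol, and each symbol was found, giving 10 of the 16920 genes listed. All 10 passed the filter on low counts that left 12064 genes for testing, but Ccl17 would not have passed without the KO LPS libraries, so its difference between groups was partly fixed by the filter. The libraries came from peritoneal macrophages of C57BL/6 mice, which the study's methods give as 6 to 10 weeks old. The series record states that the cells were drawn 3 days after an injection of 6% starch broth, whereas the study's methods name thioglycollate. After overnight culture the cells received LPS at 1 µg/mL, a bacterial cell wall product sensed by TLR4, or PBS for 6 h. The 4 groups were WT with PBS, WT with LPS, Ythdf1 knockout with PBS and Ythdf1 knockout with LPS, with 3 libraries each. The knockout animals were Ythdf1-/- mice made with CRISPR/Cas9, and Ythdf1 encodes a cytoplasmic protein that reads the m6A mark on mRNA. The samples were called biological replicates, but no source says whether each came from its own mouse, so p-values measure the spread between these samples.

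CC chemokines are small secreted proteins, named for 2 adjacent cysteines, that guide leukocytes along a gradient through G protein-coupled receptors. Macrophages are a main source of them in inflamed tissue, where NF-kB and other factors switch on many chemokine genes after TLR4 is engaged. CCL2, CCL7 and CCL12 draw CCR2-bearing monocytes, CCL3, CCL4 and CCL5 draw monocytes, T cells and NK cells, with CCR1 among the receptors of CCL3 and CCL5, and CCL6 and CCL9 are rodent chemokines that act on CCR1. CCL17 and CCL22 share the receptor CCR4, found on Th2 and regulatory T cells.

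Totals ran from 21546274 to 22017005 counts per library. Levels are given as CPM, counts scaled to a common library size with TMM factors, and a floor of 3 counts corresponded to 0.105 to 0.187 CPM. The level of Ythdf1 itself was 43.5 ± 1.54 CPM in WT PBS, 57.2 ± 1.53 in KO PBS, 201 ± 9.37 in WT LPS and 198 ± 6.94 in KO LPS (SD, n = 3). The mRNA was thus higher in the libraries labelled knockout under PBS (log2 0.40, adjusted p = 0.000133 by edgeR's test). Under LPS no difference passed that test (log2 -0.028, adjusted p = 0.724). Counts per gene cannot show a small deletion, and the genotype comparisons therefore rest on the labels, for which KO stands throughout. The study shows tail genotyping of the knockout line and YTHDF1 immunoblots of liver and spleen from bone marrow chimeras. Of 8 macrophage markers all were tested, and their summed level lay between 17591 CPM in WT PBS and 18827 CPM in WT LPS as group means. Lyz2 made up most of that sum, at 11152 to 12787 CPM. Within the LPS groups, WT LPS replicate 1 was the lowest of its group for 9 of the 10 chemokines, and KO LPS replicate 3 for 8 of the 10.

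Of the 10 genes, 8 lie on chromosome 11 in 2 runs (GRCm38.p6, RefSeq gene spans). Ccl2 (chr11:82035577-82037452), Ccl7 (chr11:82045712-82047525) and Ccl12 (chr11:82101845-82103399) follow each other on the plus strand. After a gap of 1422378 bases come Ccl5 (chr11:83525778-83530518), Ccl9 (chr11:83572917-83578636), Ccl6 (chr11:83587886-83593087) and Ccl3 (chr11:83647843-83649378) on the minus strand and Ccl4 (chr11:83648624-83664683) on the plus strand. Ccl22 (chr8:94745684-94751388) and Ccl17 (chr8:94809380-94812038) are 57991 bases apart on the plus strand of chromosome 8. The spans of Ccl3 and Ccl4 overlap by 755 bases on opposite strands. Their deposited counts carried decimals in all 12 libraries and added up to a whole number, within 0.015, in 12 of 12, while those of 7 other chemokines were whole, within 0.001, everywhere. The decimals of Ccl3 and Ccl4 thus offset each other. In GENCODE M21 neither gene shares any of its 50-base runs (717 in Ccl3, 611 in Ccl4) with transcripts of another gene on either strand. That annotation may not be the one used for counting, so this cannot show whether the counted transcripts share sequence. Whether the counting used strand is not given in the sources used here. The results of this pair are therefore also given for their summed counts. Ccl9 counts had decimals in all 12 libraries too. Of its 50-base runs 1.97% occur on the same strand in transcripts of other genes (250 genes, GENCODE M21) and 1.67% on the opposite strand (217 genes). The level of Ccl9 is therefore uncertain, by an amount that was not tested.

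Promoter sequences were matched in the RefSeq table (GRCm38.p6) for 6 of the 10 genes, Ccl3, Ccl6, Ccl9, Ccl12, Ccl17 and Ccl22. Those printed here are the 250 bases before the start sites of Ccl9 and Ccl6, neighbours 9249 bases apart that parted in their response to LPS, and of Ccl3, the gene with the highest level per kilobase after LPS. Capitals mark matches to 3 motifs searched on both strands.
Ccl9, chr11:83578637-83578886, minus strand: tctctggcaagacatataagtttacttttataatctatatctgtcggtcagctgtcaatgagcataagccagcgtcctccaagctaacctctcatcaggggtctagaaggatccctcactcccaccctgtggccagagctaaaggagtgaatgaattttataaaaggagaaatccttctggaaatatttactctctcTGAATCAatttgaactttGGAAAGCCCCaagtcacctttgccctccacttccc
Ccl6, chr11:83593088-83593337, minus strand: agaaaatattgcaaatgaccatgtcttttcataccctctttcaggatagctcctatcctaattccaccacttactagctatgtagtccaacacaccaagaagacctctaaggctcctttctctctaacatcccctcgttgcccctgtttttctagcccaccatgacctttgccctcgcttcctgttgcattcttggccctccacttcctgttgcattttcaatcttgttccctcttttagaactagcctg
Ccl3, chr11:83649379-83649628, minus strand: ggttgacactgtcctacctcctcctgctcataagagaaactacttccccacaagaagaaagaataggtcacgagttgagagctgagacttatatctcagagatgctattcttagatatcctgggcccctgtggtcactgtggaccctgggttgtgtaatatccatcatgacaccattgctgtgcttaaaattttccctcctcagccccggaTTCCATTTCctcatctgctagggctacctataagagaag
In Ccl9 the first capitals match the pattern searched for AP-1 (TGANTCA, any base at the centre, here A), starting 53 bases before the start site. That pattern, though not this stretch, reads the same on both strands. The others match the kB consensus on the opposite strand, starting 35 bases before the start site. In Ccl3 they are an ISRE core (GAAANNGAA) on the opposite strand, starting 39 bases before the start site. Ccl6 held none of the 3 motifs, and neither did Ccl12, Ccl17 or Ccl22 in windows of 300 bases reaching past the start site. Each motif was thus found in 1 of 6 windows. Of the 32851 promoters in the table, 8.46% held the kB consensus, 7.81% the AP-1 pattern and 8.56% the ISRE core. The window of Ccl17 (chr8:94810203-94810502) lay inside the gene span given above, so the bases before that span were not searched.

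LPS changed the level and the make-up of chemokine mRNA in both genotypes. The summed level of the 10 genes was 1027, 1098 and 1109 CPM in WT PBS and 19353, 22215 and 22686 CPM in WT LPS. It was 406, 439 and 455 CPM in KO PBS and 33527, 35192 and 31809 CPM in KO LPS. The 4 groups did not overlap, with KO lowest under PBS and highest under LPS. As a share of all counts the 10 genes took 0.137% in WT PBS, 0.0568% in KO PBS, 1.72% in WT LPS and 2.52% in KO LPS. In bulk RNA, fewer cells making a chemokine and less mRNA per cell cannot be told apart.

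**Figure D1:**
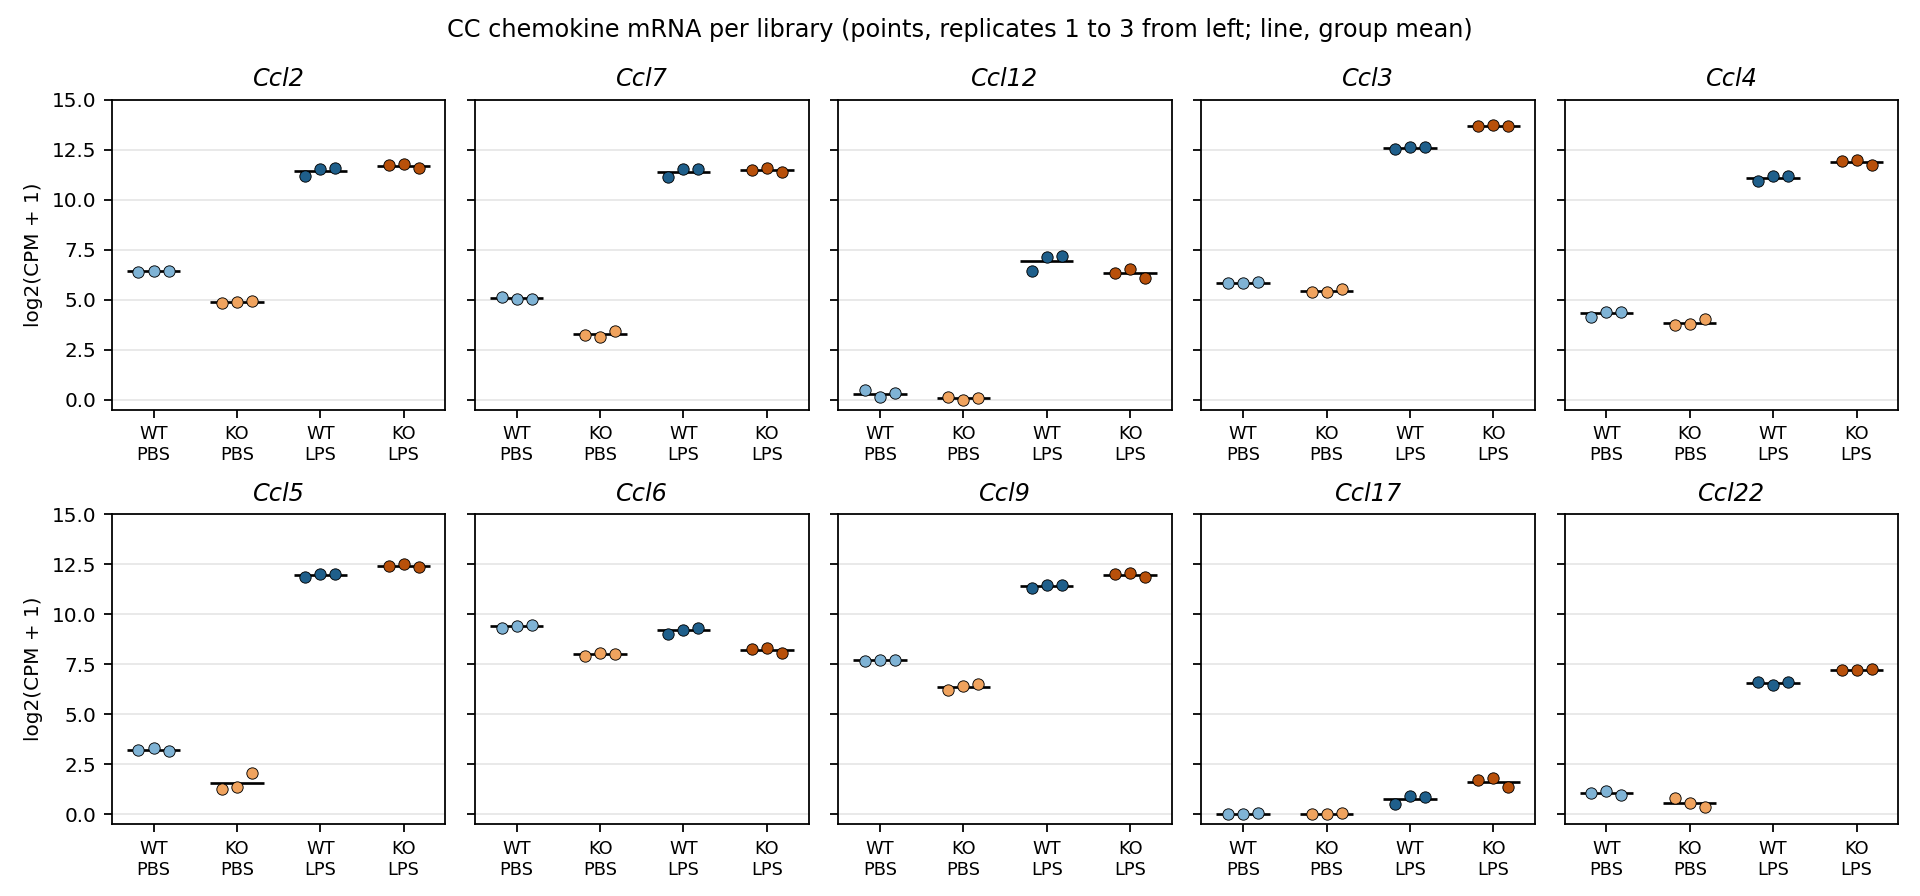
Level of each CC chemokine in each library, as log2(CPM + 1), with 3 points per group for the replicates and a line at their mean. In every panel but that of Ccl6 both LPS groups lie above both PBS groups, and Ccl6 was lower in KO than in WT under both treatments.

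In WT cells 10 of 10 chemokines passed the test against PBS, 9 higher and 1, Ccl6, lower, where 36.5% of all tested genes were called higher and 40.2% lower. Their median log2 difference was 6.40, against -0.05 over all genes tested. Ccl17 entered this test through the KO LPS libraries. In a fit to the 6 WT libraries alone it was not tested and Ccl6 lost its call (adjusted p = 0.0756), which left 8 called. In KO cells 10 of 10 were called higher, where 38.8% of all genes were called higher and 41.1% lower, with a median of 8.17 against -0.04. Without Ccl17, which the KO LPS libraries themselves brought into this test, 9 of 9 were called higher, with a median of 8.19. Between genotypes under PBS, 8 chemokines were lower in KO and 0 higher, where 13% of all genes were called lower and 12.3% higher, and the median was -1.36 against 0.00036. Under LPS 7 were higher in KO and 2 lower, where 22.1% of all genes were called higher and 19.3% lower, with a median of 0.53 against 0.00059. Without Ccl17, which its KO LPS counts brought into the test, 6 were higher and 2 lower, with a median of 0.47. The difference between the LPS responses of KO and WT, tested as an interaction, was called for 8 chemokines, each with a higher log2 response in KO. For 7 of them this was a larger rise in KO, while Ccl6 was called lower with LPS in WT and higher in KO, a pattern that depended on the scaling. Of all genes 9.78% were called in that direction and 8.26% in the other, and the medians were 1.68 and 0.0095. These comparisons share samples, so they are not independent of each other. Here and below, log2 differences are given ± SE with Benjamini-Hochberg adjusted p over all 12064 genes from edgeR's quasi-likelihood test.

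**Figure D2:**
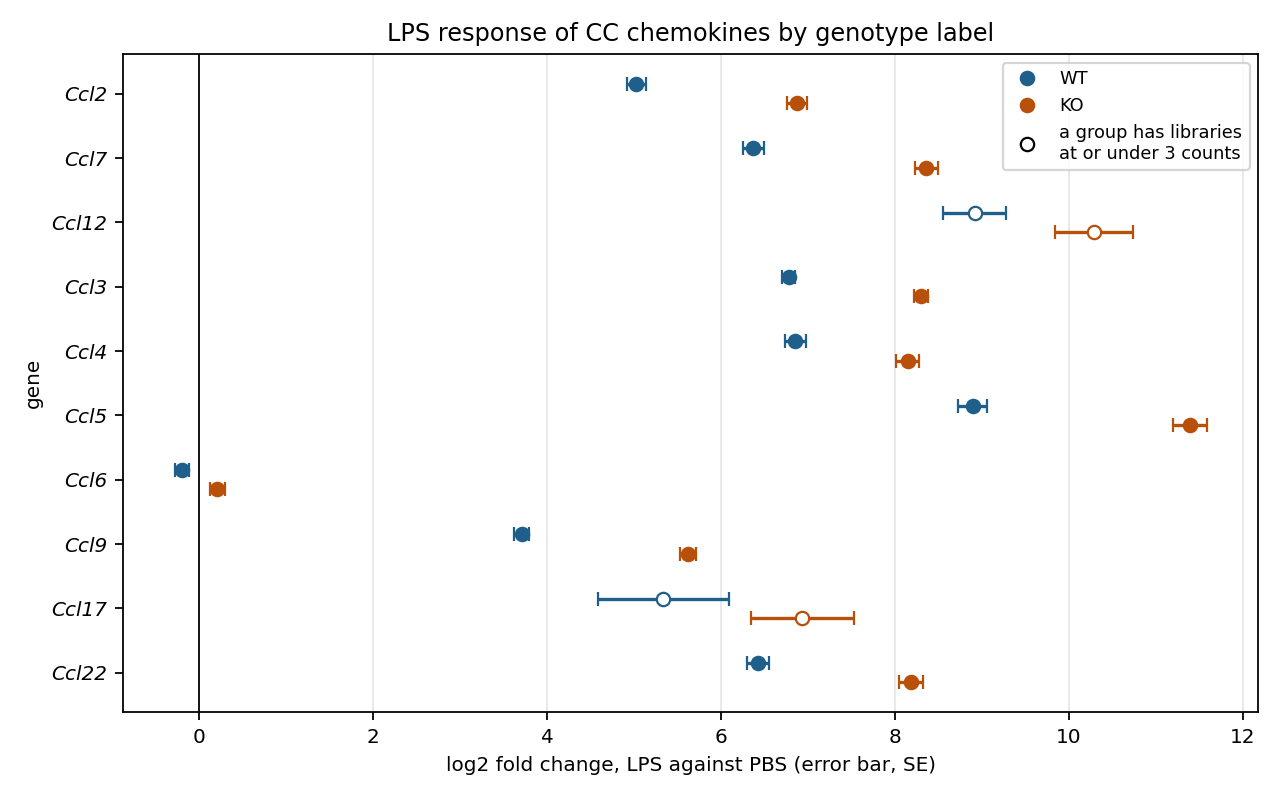
Log2 fold change of LPS against PBS for each chemokine in WT and in KO, with SE as bars and open points where a PBS library had 3 counts or fewer. The KO value lies to the right of the WT value for each gene, by 0.40 for Ccl6 and by 2.50 for Ccl5, and the open values of Ccl12 and Ccl17 depend on counts near 0.

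The CCR2 ligands Ccl2 and Ccl7 were lower in KO under PBS, and under LPS their levels overlapped between genotypes. Ccl2, the gene of monocyte chemoattractant protein 1, stood at 82.6, 86.9 and 86.4 CPM in WT PBS and at 27.4, 28.4 and 29.9 CPM in KO PBS. With LPS it reached 2305, 2958 and 3096 CPM in WT and 3456, 3591 and 3040 CPM in KO. The PBS groups were far apart, whereas the LPS groups overlapped. The rise was 32.7-fold in WT (log2 5.03 ± 0.108, adjusted p = 1.95e-16) and 118-fold in KO (log2 6.88 ± 0.119, adjusted p = 1.2e-17). Under PBS Ccl2 was 2.98-fold lower in KO (log2 -1.58 ± 0.0984, adjusted p = 2.3e-08). Under LPS it was 1.21-fold higher in KO (log2 0.27 ± 0.0905, adjusted p = 0.0247). That last call rested on single libraries, since it was lost without WT LPS replicate 1 (log2 0.15, adjusted p = 0.0529), without KO LPS replicate 1 (0.25, adjusted p = 0.0807) or without KO LPS replicate 2 (0.22, adjusted p = 0.0927). It was also lost under upper-quartile scaling (adjusted p = 0.121) and with library totals alone (adjusted p = 0.153).

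Ccl7, which encodes monocyte chemoattractant protein 3, followed the same course. Its level was 34.9, 31.9 and 31.4 CPM in WT PBS against 8.61, 7.97 and 9.74 CPM in KO PBS. Under LPS it was 2261, 2952 and 2940 CPM in WT and 2906, 3120 and 2660 CPM in KO, with overlapping groups. Ccl7 was 3.73-fold lower in KO under PBS (log2 -1.90 ± 0.114, adjusted p = 1.92e-08). Under LPS the difference was 0.09 ± 0.0941 on the log2 scale (adjusted p = 0.466), and its sign turned without WT LPS replicate 1 (log2 -0.024). It rose 83.0-fold in WT and 330-fold in KO. The interaction was 1.99 ± 0.148 for Ccl7 (adjusted p = 5.3e-07) and 1.85 ± 0.133 for Ccl2 (adjusted p = 3.17e-07). The lower PBS level in KO accounted arithmetically for 95.4% of the interaction of Ccl7 and 85.3% of that of Ccl2.

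Ccl12, the third CCR2 ligand and neighbour of Ccl7, went the other way under LPS. It had 11, 3 and 7 counts in WT PBS and 3, 0 and 2 counts in KO PBS, at or near the floor. LPS brought it to 86.3, 142 and 145 CPM in WT and to 81.3, 93.7 and 66.7 CPM in KO. Both LPS groups were far above the floor and overlapped through WT LPS replicate 1. Summed over libraries, counts relative to library size were 496-fold higher with LPS in WT (exact 95% interval for counting error 324 to 802) and 1375-fold higher in KO (589 to 4239). Under LPS Ccl12 was lower in KO (log2 -0.63 ± 0.192, adjusted p = 0.0231). The call was lost without WT LPS replicate 2 (adjusted p = 0.0784) or 3 (0.0799) and without KO LPS replicate 1 (0.0542) or 3 (0.0829). Under PBS the summed counts were 4.29-fold lower in KO (interval 1.57 to 14.55), which did not pass edgeR's test (adjusted p = 0.337) and passed that of DESeq2 (adjusted p = 0.0244). The interaction of Ccl12 was not called (adjusted p = 0.572).

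Of the inflammatory chemokines Ccl3, Ccl4 and Ccl5, Ccl3 and Ccl4 were lower in KO under PBS by less than the other genes called, and were higher in KO under LPS. Ccl3, which encodes macrophage inflammatory protein 1 alpha, stood at 56.0, 55.7 and 58.1 CPM in WT PBS and at 40.8, 40.8 and 45.7 CPM in KO PBS. Under LPS it was 5933, 6302 and 6450 CPM in WT and 13141, 13741 and 13206 CPM in KO. Every KO LPS library was above every WT LPS library. The rise was 110-fold in WT (log2 6.78 ± 0.0741, adjusted p = 3.41e-19) and 315-fold in KO (log2 8.30 ± 0.0791, adjusted p = 5.61e-20). Ccl3 was 1.33-fold lower in KO under PBS (log2 -0.42 ± 0.0608, adjusted p = 0.000128) and 2.15-fold higher under LPS (log2 1.10 ± 0.0578, adjusted p = 1.3e-09). The PBS difference made up 27.4% of its interaction of 1.52 ± 0.0837 (adjusted p = 1.85e-08).

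Ccl4, the gene of macrophage inflammatory protein 1 beta, moved like its neighbour. Its levels were 16.8, 20.3 and 20.1 CPM in WT PBS and 12.3, 12.8 and 15.4 CPM in KO PBS. They were 1933, 2341 and 2372 CPM in WT LPS and 3958, 4061 and 3474 CPM in KO LPS, with no overlap between genotypes in either treatment. Ccl4 rose 116-fold in WT and 284-fold in KO. It was 1.42-fold lower in KO under PBS (log2 -0.50 ± 0.112, adjusted p = 0.00424) and 1.73-fold higher under LPS (log2 0.79 ± 0.095, adjusted p = 1.07e-05), with an interaction of 1.29 ± 0.147 (adjusted p = 2.75e-05). With the counts of Ccl3 and Ccl4 summed, the KO difference was -0.44 ± 0.0672 under PBS (adjusted p = 0.000205) and 1.03 ± 0.0647 under LPS (adjusted p = 9.63e-09), and the interaction was 1.46 ± 0.0932 (adjusted p = 8.24e-08).

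Ccl5, which encodes RANTES, had the largest interaction of the 10 genes. In WT PBS it was at 8.35, 8.76 and 7.86 CPM, and in KO PBS at 1.37, 1.61 and 3.12 CPM. KO PBS replicate 3 had 88 counts, against 39 and 46 in the other two. Under LPS Ccl5 reached 3722, 4066 and 4116 CPM in WT and 5474, 5808 and 5169 CPM in KO. The genotypes were apart under both treatments, in opposite order. The rise was 476-fold in WT (log2 8.90 ± 0.169, adjusted p = 1.86e-15) and 2695-fold in KO (log2 11.40 ± 0.192, adjusted p = 4.3e-16). Ccl5 was 4.09-fold lower in KO under PBS (log2 -2.03 ± 0.191, adjusted p = 5.26e-06). Under LPS it was 1.38-fold higher in KO (log2 0.47 ± 0.116, adjusted p = 0.0054), a call that DESeq2 did not make (adjusted p = 0.138). The interaction was 2.50 ± 0.224 (adjusted p = 7.92e-06), of which 81.3% came from the PBS difference.

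The neighbouring CCR1 ligands Ccl6 and Ccl9 parted under LPS. Ccl6 stood at 626, 684 and 694 CPM in WT PBS and at 511, 601 and 643 CPM in WT LPS. In KO it was at 242, 264 and 261 CPM with PBS and at 303, 321 and 263 CPM with LPS. PBS and LPS groups overlapped in both genotypes, whereas every KO library was below every WT library. LPS moved Ccl6 by -0.19 ± 0.0849 on the log2 scale in WT (adjusted p = 0.0498), a call lost in 12 of 20 alternatives. In KO it moved by 0.21 ± 0.0857 (adjusted p = 0.0332), lost in 7 of 20 and turned to -0.14 under upper-quartile scaling and -0.59 with library totals alone. The lower level in KO was steadier, 2.61-fold under PBS (log2 -1.39 ± 0.0866, adjusted p = 1.84e-08) and 1.98-fold under LPS (log2 -0.98 ± 0.0863, adjusted p = 3.34e-07), and both were called in all 20 alternatives. Its interaction of 0.40 ± 0.121 (adjusted p = 0.0299) was lost in 10 of 19.

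Ccl9, the gene of macrophage inflammatory protein 1 gamma, rose in both genotypes, with the smallest rise in value of the 9 genes called higher in WT. Its levels were 201, 208 and 209 CPM in WT PBS and 72.7, 83.1 and 90.1 CPM in KO PBS. With LPS they were 2506, 2766 and 2828 CPM in WT and 4060, 4307 and 3775 CPM in KO. KO was lower than WT in every PBS library and higher in every LPS library. The rise was 13.1-fold in WT (log2 3.71 ± 0.0832, adjusted p = 1.81e-16) and 49.4-fold in KO (log2 5.63 ± 0.0914, adjusted p = 3.56e-18). The KO difference was -1.33 ± 0.0775 under PBS (adjusted p = 8.55e-09) and 0.58 ± 0.0747 under LPS (adjusted p = 1.54e-05). The interaction was 1.91 ± 0.108 (adjusted p = 1.85e-08).

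The CCR4 ligands had the lowest levels per kilobase under LPS. Ccl22, the gene of macrophage-derived chemokine, was at 1.08, 1.22 and 0.929 CPM in WT PBS and at 0.735, 0.491 and 0.283 CPM in KO PBS, which is 30, 34 and 26 counts against 21, 14 and 8. Under LPS it was at 95.9, 87.6 and 96.3 CPM in WT and at 146, 146 and 154 CPM in KO. The genotypes did not overlap in either treatment. Ccl22 rose 86.2-fold in WT and 291-fold in KO. It was 2.12-fold lower in KO under PBS (log2 -1.09 ± 0.245, adjusted p = 0.00411) and 1.59-fold higher under LPS (log2 0.67 ± 0.0772, adjusted p = 5.44e-06), with an interaction of 1.76 ± 0.256 (adjusted p = 0.000208).

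Ccl17, the gene of thymus and activation-regulated chemokine, had 0, 0 and 1 counts in WT PBS and the same in KO PBS, so that no size is read from a fit between these groups. With LPS it had 7, 15 and 15 counts in WT (0.405, 0.854 and 0.846 CPM) and 37, 41 and 25 in KO (2.27, 2.51 and 1.55 CPM). Every KO LPS library was above every WT LPS library. The summed counts relative to library size were 58.8-fold higher with LPS in WT (exact 95% interval for counting error 9.92 to 2385) and 180-fold higher in KO (31.7 to 7191). Under LPS Ccl17 was 2.99-fold higher in KO (log2 1.58 ± 0.33, adjusted p = 0.00116). The KO LPS libraries were those that took the gene past the filter, and with no filter on low counts the values were 1.58 and an adjusted p of 0.000815. Its interaction was not called (adjusted p = 0.69), and with 1 count per PBS group no size is read from it.

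**Figure D3:**
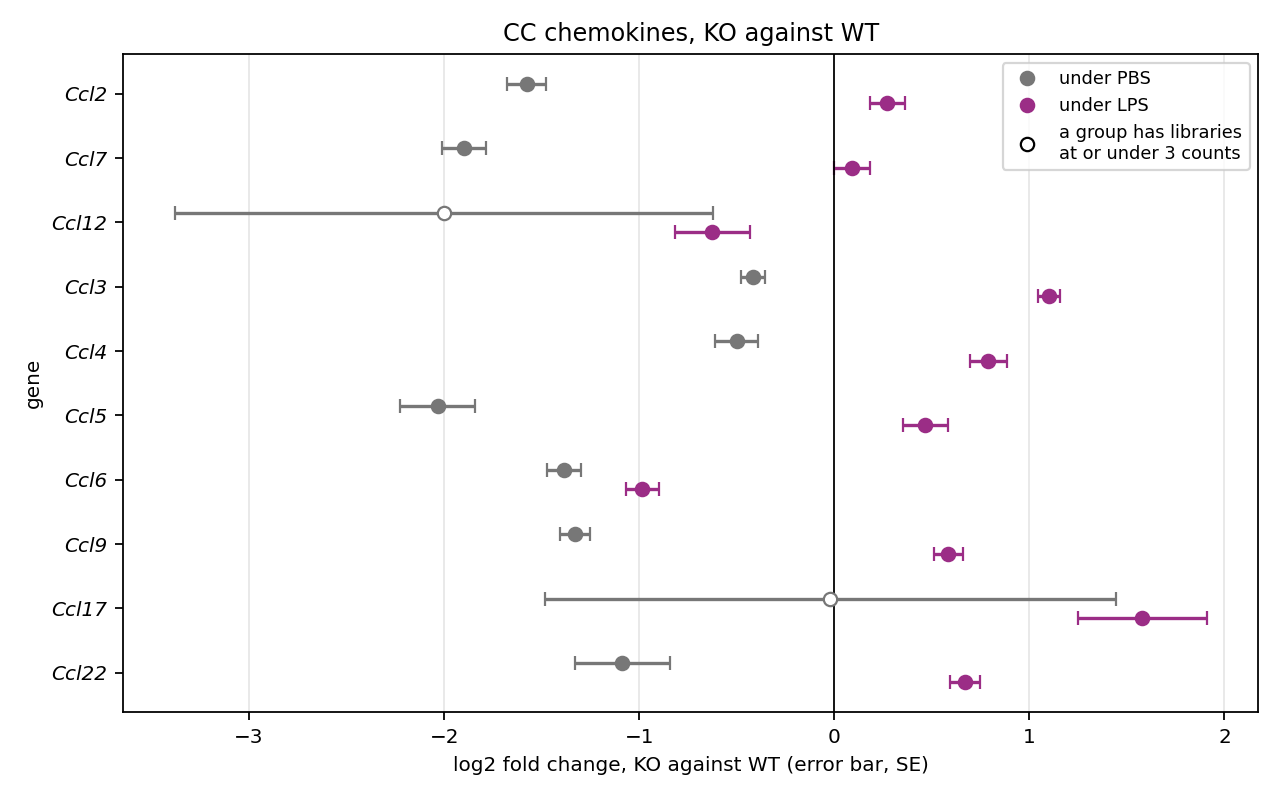
Log2 fold change of KO against WT for each chemokine under PBS and under LPS, with SE as bars and open points where a library had 3 counts or fewer. Under PBS the 8 genes called lie left of 0, from -0.42 for Ccl3 to -2.03 for Ccl5, while under LPS the 7 called higher lie right of it and Ccl6 and Ccl12 stay left.

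Across the 10 genes, the CPM of KO and WT did not overlap for 9 under PBS, all but Ccl17, where this held for 48.1% of all genes tested. For Ccl12 this rested on the scaling alone, since WT PBS replicate 2 and KO PBS replicate 1 both had 3 counts. Under LPS it held for 7, all but the 3 CCR2 ligands, against 45.6% of all genes. The 7 include Ccl17, whose separation was partly fixed by the filter, which it passed through its KO LPS counts. Of the genes called lower in KO under PBS, 6 changed by more than 1 on the log2 scale, as did 2.71% of all genes tested, and Ccl3 and Ccl4 changed by less. Under LPS 2, Ccl3 and Ccl17, were higher by more than 1, as were 1.57% of all genes, and without Ccl17 this left 1. Leaving out any 1 of the 12 libraries left 8 chemokines called under PBS each time, and 7 to 9 under LPS.

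Divided by exon length (merged GENCODE M21 exons), the order of the genes changed with LPS. These lengths may differ from those of the transcripts counted. The limits given above for the counts of Ccl3, Ccl4 and Ccl9 also hold for these orders and shares. In WT PBS Ccl6 led with 372 CPM per kb, followed by Ccl2 at 74.9 and Ccl3 at 73.9, whose ranges overlapped, Ccl9 at 67.7, Ccl7 at 40.9, Ccl4 at 28.9 and Ccl5 at 8.67. Ccl12 and Ccl22 were at 0.469 and 0.463 with overlapping ranges, and Ccl17 was lowest. In KO PBS the order was Ccl6 at 142, Ccl3 at 55.4, Ccl9 at 26.9 and Ccl2 at 25.1, which overlapped, Ccl4 at 20.4, Ccl7 at 10.95 and Ccl5 at 2.12, with Ccl22, Ccl12 and Ccl17 at 0.216 or less. Ccl6 thus held the first place under PBS in both genotypes.

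In WT LPS the order was Ccl3 at 8131 CPM per kb, Ccl5 at 4133, Ccl7 at 3393 and Ccl4 at 3357, which overlapped, Ccl2 at 2448, Ccl9 at 887, Ccl6 at 326, Ccl12 at 231, Ccl22 at 40.1 and Ccl17 at 1.37. In KO LPS it was Ccl3 at 17445, Ccl4 at 5804 and Ccl5 at 5712, which overlapped, Ccl7 at 3615, Ccl2 at 2955, Ccl9 at 1329, Ccl6 at 165 and Ccl12 at 150.03, which overlapped, Ccl22 at 63.9 and Ccl17 at 4.11. Ccl6 fell from 55.7% of the per-kilobase sum in WT PBS to 1.42% in WT LPS, and from 50.2% to 0.442% in KO. Ccl3 went from 11.1% to 35.4% in WT and from 19.5% to 46.8% in KO. Its share was larger in KO than in WT under both treatments.

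**Figure D4:**
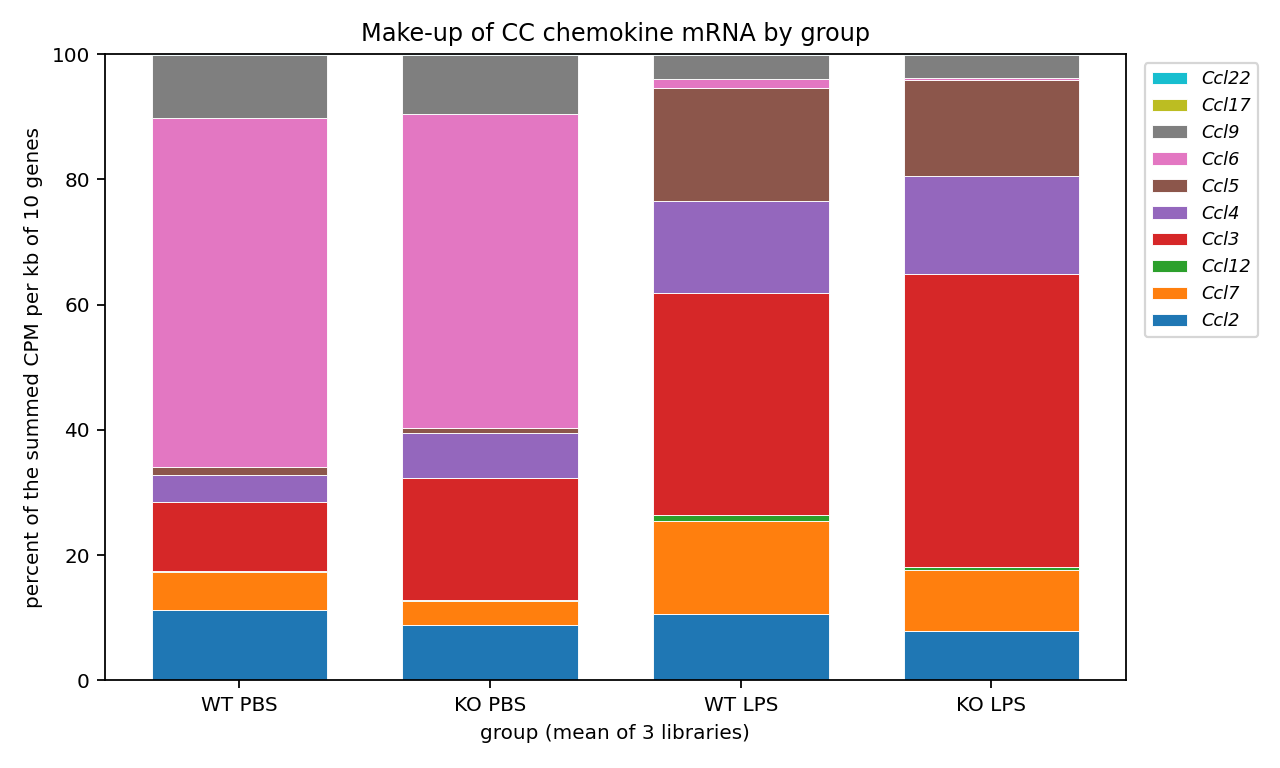
Make-up of CC chemokine mRNA in each group, as the percent of the summed CPM per kilobase of exon that each of the 10 genes took, from means of 3 libraries. Ccl6 took 55.7% in WT PBS and 50.2% in KO PBS, and Ccl3 was the largest part under LPS with 35.4% in WT and 46.8% in KO.

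Of 14 further CC chemokine genes, 9 were in the tables and 4 passed the filter, Ccl8, Ccl24, Ccl25 and Ccl28. Ccl8, a relative of Ccl2 among the monocyte chemoattractants, and Ccl24, an eotaxin that acts on eosinophils, rose with LPS in both genotypes (2 higher in each). Ccl8 went from 2.87 ± 0.0768 to 39.2 ± 12.2 CPM in WT and from 1.75 ± 0.132 to 9.19 ± 1.67 CPM in KO (SD, n = 3). The log2 rise of Ccl8 was 3.77 ± 0.235 in WT (adjusted p = 1.19e-08) and 2.39 ± 0.3 in KO (adjusted p = 1.02e-05). Unlike the 8 members with a called interaction, its response was smaller in KO (interaction -1.38 ± 0.413, adjusted p = 0.0389), and under LPS it was lower in KO by -2.09 ± 0.214 on the log2 scale (adjusted p = 1.34e-05). Ccl24 was lower in KO under PBS (log2 -1.15 ± 0.153, adjusted p = 5.34e-05) and under LPS (log2 -0.50 ± 0.117, adjusted p = 0.00261), and its interaction was 0.64 ± 0.194 (adjusted p = 0.0312). The interaction of Ccl8 was lost in 10 of 19 alternatives and that of Ccl24 in 9 of 19. Ccl28, a mucosal chemokine, was at 0.586 ± 0.133 CPM in WT PBS and was lower in WT LPS (adjusted p = 0.00499) and in KO PBS (adjusted p = 0.000766), where its level did not exceed the floor. It passed the filter through the WT PBS libraries alone, the group that both calls set against another, and with no filter the adjusted p was 0.00409 and 0.000279. In this list 1 gene was lower with LPS in WT and 0 in KO, and 0 were higher in KO under either treatment.

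Of 9 receptor genes examined, 3 passed the filter, Ccr1, Ccr2 and Ccrl2. With LPS 2 rose and Ccr2 fell in both genotypes. Ccrl2, a receptor-like protein that does not signal as chemokine receptors do, rose most, by 4.43 ± 0.0645 in WT (adjusted p = 1.62e-18) and 4.87 ± 0.0658 in KO on the log2 scale (adjusted p = 5.31e-19). Ccr1 rose by 0.85 ± 0.0884 in WT (adjusted p = 1.59e-07), a call lost with library totals alone (log2 0.19, adjusted p = 0.0723), and by 1.84 ± 0.0901 in KO (adjusted p = 5.42e-12). Ccr2, the receptor of Ccl2, Ccl7 and Ccl12, went from 12.1 ± 0.667 to 2.22 ± 0.537 CPM in WT and from 12.3 ± 0.763 to 2.38 ± 0.862 CPM in KO. Between genotypes under PBS, 1 receptor was lower in KO, Ccr1 (log2 -0.35 ± 0.0887, adjusted p = 0.00947), a call lost without WT PBS replicate 1 (adjusted p = 0.058) and without KO PBS replicate 1 (0.0718) or 2 (0.0547). Under LPS 2 were higher, Ccr1 (log2 0.65 ± 0.0875, adjusted p = 2.65e-05) and Ccrl2 (log2 0.37 ± 0.0554, adjusted p = 7.01e-05). The interaction was called for 2, both larger in KO, with Ccr1 at 0.99 ± 0.125 (adjusted p = 5.31e-05) and Ccrl2 at 0.44 ± 0.0806 (adjusted p = 0.00138).

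The genes outside the 10 whose log2 CPM followed Ccl2 most closely over the 12 libraries were Anxa2, Mt2 and Clec4a1, each with a Pearson r of 0.999. For Ccl5 they were Slc15a3, Il1rn and Cfb, with r of 0.999 each, and for Ccl22 Dnajb6, Mlkl and Parp10, with r of 0.999 each. The 12 libraries fall into 4 groups, and these values carry the differences between the group means.

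Markers of other cells were present, and some moved with the genotype label. By summed level the highest lists were those of neutrophils, almost all from Mmp8, and of fibroblasts, within the range of the chemokines under PBS. All 4 fibroblast markers were lower in KO under PBS and under LPS, and their summed level ranged from 66.4 to 80.1 CPM in WT PBS, 29.3 to 40.8 in KO PBS, 108 to 119 in WT LPS and 49.8 to 62.2 in KO LPS. Of 5 mesothelial markers 2 were lower in KO under PBS and 1 under LPS, with sums of 6.37 to 6.97 CPM in WT PBS, 3.26 to 4.28 in KO PBS, 6.54 to 7.29 in WT LPS and 4.65 to 5.66 in KO LPS. Of 5 skeletal muscle markers all were lower in KO under LPS, where their sum was 0.428 to 0.684 CPM against 28.7 to 33.6 in WT LPS, and none was called under PBS (17.2 to 22.6 CPM in WT, 0.319 to 19.6 in KO). Of 8 macrophage markers 2 were lower in KO under PBS and 4 under LPS. Among them Mrc1, the mannose receptor gene, was lower in KO under PBS (log2 -1.20, adjusted p = 5.49e-08) and LPS (log2 -1.10, adjusted p = 8.45e-08), and Mertk, a receptor for apoptotic cells, under LPS (log2 -1.24, adjusted p = 1.91e-09). Of 6 neutrophil markers 1, Mmp8, passed the filter. It was higher in KO under PBS (147 against 99.99 CPM, log2 0.56, adjusted p = 1.5e-06) and LPS (104 against 78.2 CPM, log2 0.41, adjusted p = 2.36e-05), while Mpo and Elane were at or under the floor. Of the untested ones, Ltf averaged 0.251 CPM in WT PBS, 0.164 in KO PBS, 0.153 in WT LPS and 0.0409 in KO LPS, the opposite order of genotypes to Mmp8. Camp was at 0 in both PBS groups and averaged 0.36 CPM in WT LPS and 0.677 in KO LPS. Of 6 dendritic cell markers 3 were tested and were higher with LPS in both genotypes, with sums of 0.966 to 1.52 CPM in WT PBS, 0.77 to 1.05 in KO PBS, 10.9 to 12.6 in WT LPS and 12.6 to 14.1 in KO LPS. Ccr7 made up most of the sum under LPS, with a mean of 8.82 CPM in WT and 10.1 in KO, while Flt3, Cd209a and Clec9a averaged at most 0.27 CPM in every group. Under PBS 2 of the 3 were lower in KO, Zbtb46 at 0.293 against 0.622 CPM (adjusted p = 0.0169) and Ccr7 at 0.047 against 0.204 CPM (adjusted p = 0.0206). The interaction of Ccr7 was also called (adjusted p = 0.0185), with a mean level below the floor in KO PBS. The part of these cells in the chemokine differences was not tested. All 5 NK cell markers and the 3 mast cell markers in the tables were at or under 3 counts in every library. T cell, B cell and eosinophil markers, each list summed by itself, reached at most 3.40 CPM in any library. The eosinophil marker Siglecf was lower in KO under LPS (1.19 against 2.17 CPM, log2 -0.86, adjusted p = 0.022).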

How the data were processed

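RNA from 12 libraries of elicited mouse peritoneal macrophages was read as single 50-base reads on a BGISEQ-500. The values deposited by the authors are expected counts per gene, 1 table per library, with decimals for some genes. The submitters' processing notes name Bowtie2, RSEM 1.3.1 and GRCm38.p6, whereas the study's methods describe STAR and HTSeq. The expected counts were rounded. Genes were filtered with filterByExpr, scaled by TMM and fitted with edgeR 4.0.16 (R 4.3.3, limma 3.58.1) as 1 mean per group over all 12 libraries. Robust quasi-likelihood tests gave 5 contrasts, with Benjamini-Hochberg adjustment over all 12064 genes and a threshold of 0.05. DESeq2 1.42.0 was an alternative. SE is the absolute log2 fold change divided by the square root of F. Depth differed little between libraries, and intervals on summed counts cover counting error only. All 10 genes are named in each comparison, with the 2 most changed genes each way among the other CC chemokines and the receptors, and the 3 genes most correlated with Ccl2, Ccl5 and Ccl22. Members and lists were chosen with earlier results of these data known. Marker genes were named after their values were seen. Part of the receptor list is not reported here. Summing Ccl3 and Ccl4 was added after seeing the data.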

Additional observations from a re-analysis of the deposited data

Results flagged for a closer look

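In 8 of the 10 chemokines the response to LPS differed between the genotype labels by edgeR's interaction test. The KO response exceeded the WT response by 1.85 on the log2 scale for Ccl2 and by 1.99 for Ccl7. The excess was 1.52 for Ccl3, 1.29 for Ccl4 and 2.50 for Ccl5. It was 1.91 for Ccl9 and 1.76 for Ccl22. For Ccl6 it was 0.40, lost in 10 of 19 alternatives. The LPS response of Ccl6 had opposite signs in the 2 genotypes with TMM scaling and was negative in both under upper-quartile scaling (-0.50 in WT, -0.14 in KO) and with library totals alone (-0.85 and -0.59). The level under PBS was lower in KO in each of the 8, and the level under LPS was higher in KO in 6 of them by the test, not in Ccl7 (0.09) and with the opposite sign in Ccl6 (-0.98). With 3 libraries per group no test for a single outlying library was made.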

How the results depend on the processing

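The counts of chemokines called stayed within 1.5 times in 102 of 104 alternatives. With at least 10 counts required in every library 6 were called higher with LPS in KO, since Ccl12, Ccl17 and Ccl22 were no longer tested and Ccl6 lost its call. With an absolute log2 fold change over 1 also required, 2 were called between genotypes under LPS. Leaving out 1 library at a time gave 9 to 10 calls for LPS in WT and in KO, 8 under PBS between genotypes, 7 to 9 under LPS and 7 to 8 for the interaction. It is not known whether replicate numbers pair the samples. Correlations of the libraries' deviations from their group means ran from -0.26 to 0.25 with the same number and -0.36 to 0.39 with different numbers. Between PBS and LPS of 1 genotype, same-numbered values were 0.209, 0.222 and -0.037 in WT and 0.039, 0.137 and 0.108 in KO. Different-numbered values there ran from -0.295 to 0.184 in WT and from -0.115 to -0.006 in KO. With the replicate block 10, 10, 8, 9 and 8 chemokines were called in the 5 contrasts. Signs turned for Ccl6 in KO with LPS (-0.144 under upper-quartile scaling and -0.590 with library totals alone) and for Ccl17 between genotypes under PBS (0.0142 with library totals alone). Leaving out 1 library moved the fitted value of Ccl17 under PBS, which rests on 1 count per group, from -1.63 to 1.62, its interaction from -0.037 to 3.20 and Ccl7 between genotypes under LPS from -0.024 to 0.155. The cause was not tested. The summed level of the 10 genes also depended on scaling, at 1219 CPM in WT PBS, 19558 in WT LPS, 483 in KO PBS and 29177 in KO LPS under upper-quartile scaling and at 1366, 17157, 568 and 25212 with library totals alone, with the same order of the groups. Of 982 values for single chemokines, 932 kept direction and call, 41 lost the call, 1 gained it and 8 turned sign. Upper-quartile scaling shifted the median of all genes by -0.31 in WT and -0.36 in KO for LPS against PBS, and library totals alone by -0.66 and -0.80. Depth limits Ccl12 and Ccl17 under PBS, where counts were at or near 0.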
